A study of Mus musculus with 50 samples.

Results

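The tag-high libraries are 32 of 50 mouse liver transcriptomes, grouped by a measured value, that of Gm13394 (ENSMUSG00000083773), an annotated processed pseudogene of Gapdh on chromosome 2. A library was tag-high at a Gm13394 value of 10 or more and tag-low below 10, which placed 18 libraries in the tag-low group. The values are normalized expression, read counts per gene that the authors scaled by library size. The mice descend from B6.A4 and B6.A6, strains that carry chromosome 4 or chromosome 6 of A/J on a C57BL/6J background, each mated to C57BL/6J before their offspring were intercrossed. Every mouse of both tag groups therefore has a C57BL/6J copy of chromosomes 4 and 6 and another copy of each that can be A/J, C57BL/6J or a recombinant of both. All were males whose liver was taken after an overnight fast, and the methods give their age as 5 weeks, whereas the labels call them adult. No label gives a genotype, the genotypes were not used here, and whether the tag-high or the tag-low libraries carry A/J sequence on distal chromosome 6 was not tested. The libraries outnumber the offspring whose liver transcriptomes the study reports, and how the libraries correspond to those offspring is not known here.

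A processed pseudogene is a copy of a spliced messenger RNA pasted back into the genome, so it lacks introns and can be nearly identical to its parent gene. Gapdh, a glycolytic enzyme made in large amounts by every cell, has many such copies, and a read from Gapdh can be assigned to a copy if it matches that copy better. Where an inherited stretch of chromosome differs between mice, genes inside it can differ in expression through their own regulatory sequence, and genes elsewhere through the products of the stretch.

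The sequence of the tag shows how closely it follows its parent. Gm13394 lies at chr2:28933610-28934609 on the minus strand (GRCm38) and Gapdh at chr6:125161715-125166467, also on the minus strand. Over the 1000 bases of the annotated Gm13394 transcript, the alignment to Gapdh has 1 substitution and no gap. The substitution is A346C, with Gapdh first and positions counted from 1 at the first base of the Gapdh coding sequence. The 61 coding bases around it, 316 to 376, are printed with that base in capitals, and for Gm12070 also its own substitution, G361A. In Gapdh the stretch joins 2 exons between chr6:125162986 and chr6:125163144, in Gm13394 it is chr2:28934234-28934294, and in Gm12070, a copy on the plus strand of chromosome 11, it is chr11:26786948-26787008.
Gapdh: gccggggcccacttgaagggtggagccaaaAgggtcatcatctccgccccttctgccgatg
Gm13394: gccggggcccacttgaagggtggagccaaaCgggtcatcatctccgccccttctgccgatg
Gm12070: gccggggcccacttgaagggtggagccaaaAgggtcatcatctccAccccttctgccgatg
The sequences are those of the GENCODE M21 transcripts. Of 8 other genes that align over these bases, 5 have exactly the Gapdh bases. Within the aligned bases Gm13394 and Gapdh differ only at base 346, which 31 stretches of 31 bases in the Gapdh transcript cover. The A/J sequence of Gapdh was not used here.

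Gm13394 set the groups, so its values are a description. In the tag-low libraries the lowest, median and highest values were 0.160, 0.636 and 7.94, and in the tag-high libraries 84.4, 113.5 and 163. The library nearest to the value of 10 was library 24, at 7.94 the highest of the tag-low group, and the lowest of the tag-high group was library 1, at 84.4. The tag-low library next below library 24 was library 43, at 1.05. Library 24 thus stood apart from the other 17 tag-low libraries, and results are also given without it where it changes a call.

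Gapdh, whose reads the tag can take up, is likewise described without a test. Its values ran from 578 over a median of 657 to 793 in tag-low libraries and from 393 over 493 to 668 in tag-high libraries. The groups overlapped, with the tag-high libraries shifted downward. Gm13394 made up a median of 0.0894% of the summed values of Gapdh and the 10 measured genes that share 31-base stretches with it in tag-low libraries, and 16.8% in tag-high libraries, where the share ran only from 15.95% to 18.6%. That sum had a median of 708 in tag-low and 650 in tag-high libraries, with ranges of 630 to 849 and 527 to 878 that largely overlapped.

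The other copies showed no such split. Gm5559, a copy on chromosome 5 with 1 substitution against Gapdh, ran from 1.87 to 5.37 in tag-low and from 1.49 to 6.72 in tag-high libraries, with medians of 3.88 and 3.42. Gm2546, a copy on chromosome 7 with 10 substitutions, had medians of 1.34 and 0.792 and ranges of 0.935 to 2.87 and 0.305 to 1.28. Like Gapdh, it was lower in most tag-high libraries. Medians in tag-low and tag-high libraries were 1.08 and 0.863 for Gm12070 and 1.29 and 0.965 for Gm7336. They were 0.401 and 0.313 for Gm12033 and 14.1 and 13.5 for Gm3839. Gm5345, at 5.50 and 5.79, and Gm8941, at 2.91 and 3.29, had the higher median in tag-high libraries. For each of these copies the ranges overlapped. Peli2, an E3 ubiquitin ligase gene of which 1.92% of stretches match Gapdh, had medians of 19.6 and 20.3 in ranges that overlapped almost wholly.

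**Figure D1:**
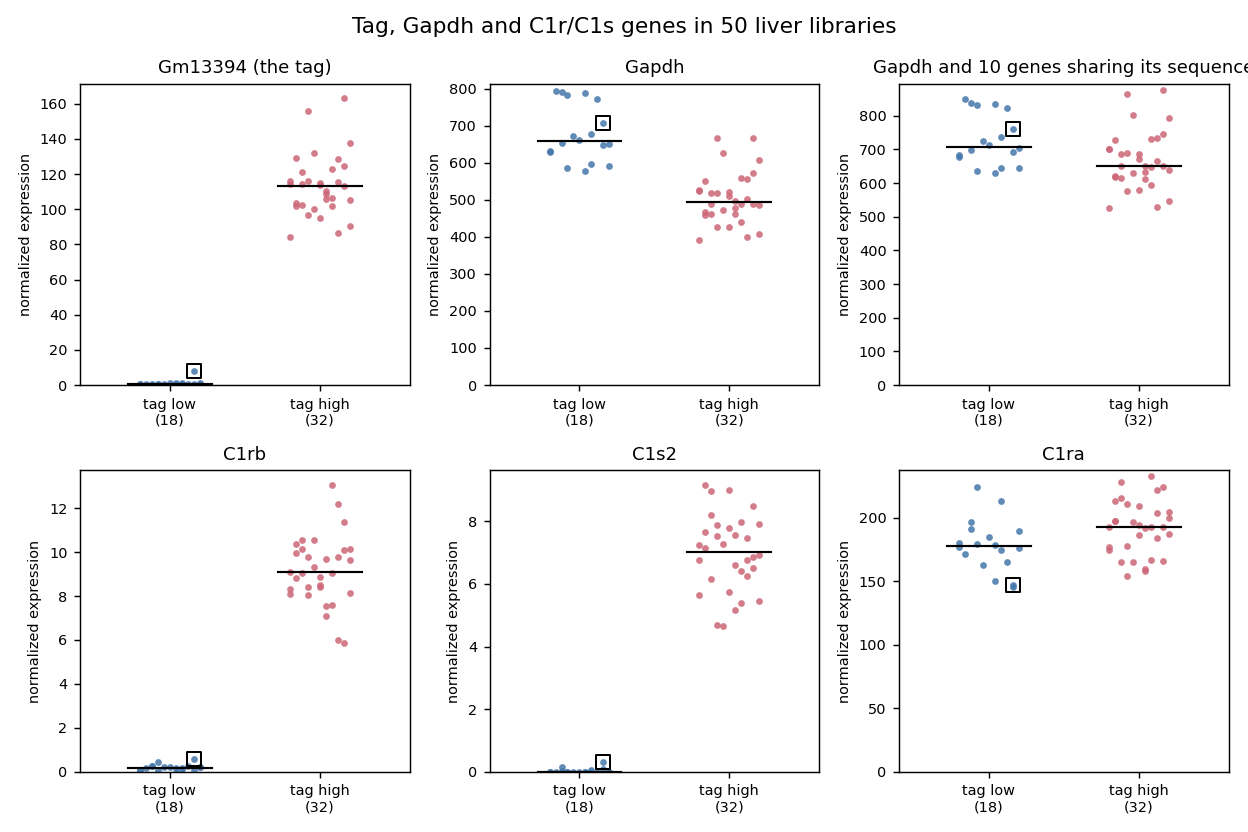
Normalized expression of Gm13394, Gapdh, the sum of Gapdh and the 10 genes that share sequence with it, C1rb, C1s2 and C1ra in the 18 tag-low and 32 tag-high libraries. Each point is a library, the black line is the group median and the square marks library 24. Gm13394, C1rb and C1s2 do not overlap between groups, whereas Gapdh, the sum and C1ra do.

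The comparison of tag-high with tag-low libraries asks which other genes follow the tag and where they lie. Tested were 11427 genes whose mean value reached 1 and which share no stretch with Gapdh. Of these, 16 passed an adjusted p of 0.05 in limma on log2(value + 0.5), which is 0.14% of those tested. Higher in tag-high libraries were 8 genes (0.07%) and lower were 8 (0.07%). Chromosome 6 held 14 of the 16, 7 in each direction, among 574 tested genes. Chromosome 4, which also segregates in the cross, held 0 of 729 with 66 genes at an unadjusted p under 0.05, and edgeR and DESeq2 on the recovered reads also called 0 there. The other chromosomes held 2 of 10116. On this log2 scale the change of genes with low values is understated. The p-values measure spread between libraries, and since 2 animal numbers stand on 2 libraries each, not every library is known to be a separate mouse. These are libraries 8 and 10 and libraries 22 and 55, all of them tag-high.

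All 14 genes called on chromosome 6 start between 120 and 150 Mb, where 162 genes were tested and 8.64% passed. None of 412 genes before 120 Mb passed in limma, though 11.9% of them had an unadjusted p under 0.05. That share was 9.05% over all genes tested, 9.05% on chromosome 4 and 8.56% on the other chromosomes. Within chromosome 6 it was 33.3% from 120 to 130 Mb, the 10 Mb that hold Gapdh, 45.5% from 130 to 140 Mb and 15.4% from 140 to 150 Mb. Of the windows before 120 Mb, 4 lay above that last share, at 20.8% from 20 to 30 Mb, 25% of 4 genes from 60 to 70 Mb, 16.7% from 100 to 110 Mb and 19.6% from 110 to 120 Mb.  The share of the variance of log2 values that lay between the groups had a median of 1.37% over all genes tested, of 2.89% from 120 to 130 Mb, 5.89% from 130 to 140 Mb and 2.70% from 140 to 150 Mb, and before 120 Mb of 2.91% from 20 to 30 Mb and of 3.16% for the 4 genes from 60 to 70 Mb.

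**Figure D2:**
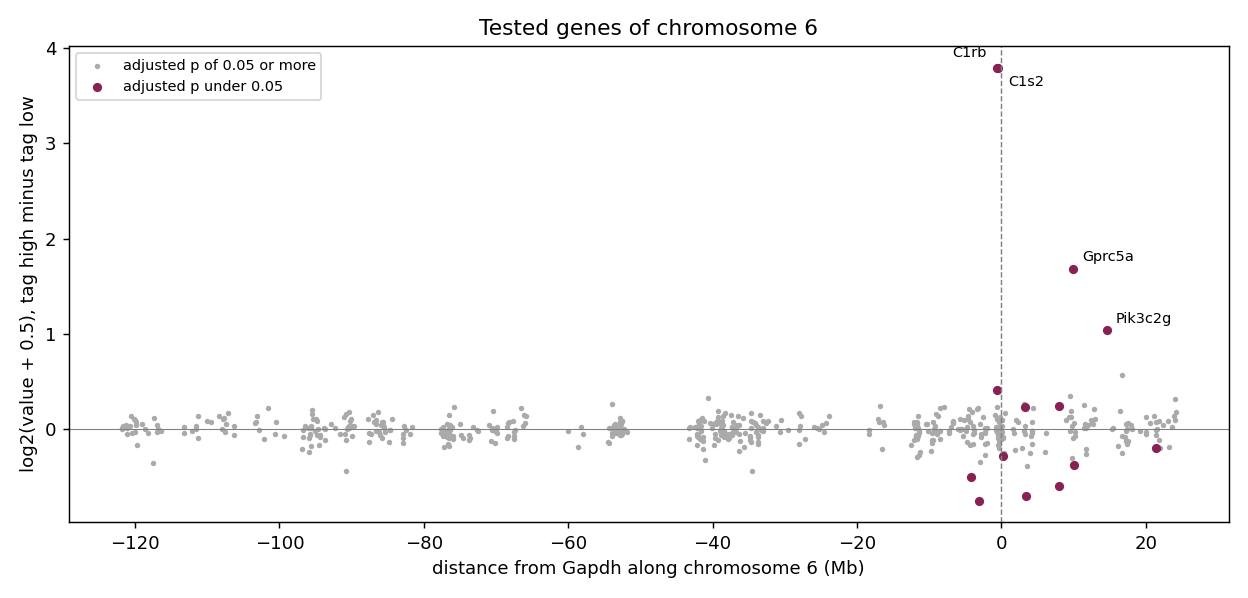
Difference in log2(value + 0.5), tag-high minus tag-low, of the 574 tested genes of chromosome 6 against their distance from Gapdh in Mb. Dark points are the 14 genes with an adjusted p under 0.05, all from 4.26 Mb before Gapdh to 21.5 Mb beyond it.

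**Figure D3:**
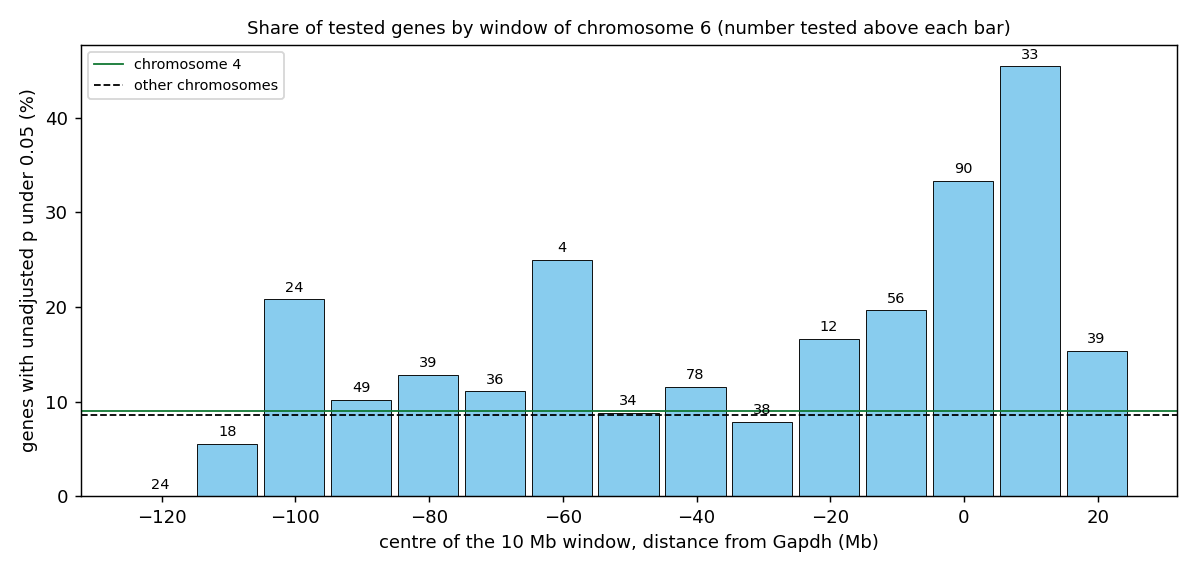
Share of tested genes with an unadjusted p under 0.05 in each 10 Mb window of chromosome 6, by the distance of the window's centre from Gapdh. The number of genes tested stands above each bar, and the lines give chromosome 4 (9.05%) and the other chromosomes (8.56%). The highest bar, 45.5%, is the window beyond the one that holds Gapdh.

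The sharpest contrast was in a duplicated pair of complement genes. C1r and C1s are the serine proteases of the C1 complex, which starts the classical complement pathway, and the mouse carries each in tandem copies, C1ra and C1rb, C1s1 and C1s2. C1rb (chr6:124570294-124581171, plus strand), a gene of the label and chosen with earlier results known, had values of 0, 0.188 and 0.590 (lowest, median, highest) in tag-low libraries and of 5.88, 9.07 and 13.1 in tag-high libraries. Every tag-high library lay above every tag-low library. The difference was 3.80 ± 0.07 (SE) on the log2 scale, with an adjusted p of 7.38e-43 in limma. It was 3.71 in libraries numbered 1 to 30 and 3.91 in libraries numbered 31 to 59.

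C1s2 (chr6:124624625-124636085, minus strand) ran from 0 over a median of 0 to 0.328 in tag-low libraries and from 4.67 over 7.03 to 9.17 in tag-high libraries. It too separated the groups without overlap, by 3.80 ± 0.07, adjusted p = 1.31e-44 in limma. The size depends on the value added before the logarithm and on the tool, and over the alternatives ran from 2.93 to 7.62 for C1s2 and from 3.08 to 5.50 for C1rb. Non-overlapping values were seen for these 2 genes, or 0.0175% of those tested. The tag-low libraries held 10 reads of C1s2 in all, 5 of them in library 24, and 13 of the 18 held none, while each tag-high library held at least 65. For C1rb the tag-low total was 58 reads and the fewest in a tag-high library was 76. Library 24 had the highest tag-low value of both genes, as it had of the tag. Both met the filter through the tag-high libraries, with group means of 0.198 and 9.17 for C1rb and of 0.0354 and 6.97 for C1s2, and both also passed with no filter.

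The partner copies did not pass the test. C1ra (chr6:124512405-124523443) had medians of 178 and 193 in tag-low and tag-high libraries, in ranges of 146 to 224 and 154 to 233, and C1s1 (chr6:124530345-124542359) had medians of 300.3 and 292. Both overlapped almost fully between groups, with log2 differences of 0.11 ± 0.05 and -0.03 ± 0.05 and adjusted p of 0.523 and 0.871. The partners stand at far higher values than C1rb and C1s2 in every library. Of the 31-base stretches of C1rb, 70.0% also occur in C1ra, and of those of C1s2, 40.4% occur in C1s1, so how reads were divided between the copies is uncertain.

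Gm18840 (chr6:124561215-124563785), an unprocessed pseudogene next to C1rb, was also higher in tag-high libraries. Its values ran from 3.94 over 5.27 to 6.97 in tag-low and from 4.88 over 7.41 to 9.12 in tag-high libraries. The ranges overlapped, and 42 of 50 libraries lay nearer the median of their own group than that of the other. The medians come from the same libraries, so such counts, here and below, are descriptions. Genes that did not pass also reached high counts, such as 39 of 50 for Tprkb and 38 for Cxcl12. The difference was 0.40 ± 0.06, adjusted p = 5.93e-05 in limma. Its stretches match C1ra for 39.9%, so part of its reads could be those of C1ra.

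All 23 listed complement genes were tested, and 2 passed, namely C1rb and C1s2, against 0.14% of all genes tested. The list was chosen with earlier results of these data known and holds C1rb, a gene of the label. The count of 2 is therefore a description. Of the 23, 18 had differences above 0 and 13 an unadjusted p under 0.05, all 13 of them above 0, against 9.05% of all genes tested, and the list's median difference was 0.11, against 0.00 over all genes tested. C6, a component of the membrane attack complex encoded on chromosome 15, had medians of 71.1 and 95.9 with wide overlap (log2 difference 0.62 ± 0.21, adjusted p = 0.352). C3, the central component and the most abundant member, had medians of 5067 and 5116. C1qa, C1qb and C1qc, the recognition subunits of C1, had differences between -0.07 and -0.02, none past the threshold in limma.

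The alpha-macroglobulins, large plasma inhibitors that trap proteases, lie on both sides of the C1r and C1s genes. Mug2 (chr6:122006761-122085965), a murinoglobulin, had values of 189, 303 and 462 in tag-low and of 131, 174.4 and 279 in tag-high libraries. The ranges overlapped, and 43 of 50 libraries were on the side of their own group. The difference was -0.75 ± 0.09, adjusted p = 3.85e-08 in limma, and it passed in each set of library numbers alone (-0.72 and -0.79). Pzp (chr6:128483567-128526720), pregnancy zone protein, was higher in tag-high libraries, with medians of 3118 and 3580 and ranges of 2557 to 3734 and 2792 to 4428. Much of the ranges was shared and 34 of 50 libraries were on their own side. The difference was 0.23 ± 0.05, adjusted p = 0.0438 in limma. The call was lost without library 24 (adjusted p = 0.0593), with library 24 counted as tag-high at a tag value of 5 (0.0830), without the 4 libraries nearest the tag value of 10 (0.145), on rescaled columns (0.193) and in each set of library numbers alone (0.391 and 0.182).

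Of the 5 listed macroglobulins, 4 were tested, 1 rose and 1 fell, and 3 had an unadjusted p under 0.05, where the shares over all genes tested were 0.14% and 9.05%. On chromosome 6 from 120 Mb, 8.64% of genes tested passed and 31.5% had an unadjusted p under 0.05 in limma. The median difference of the 4 macroglobulins was 0.13, against 0.00 over all genes tested. Mug1, the most abundant, had medians of 6577 and 7336 (0.22 ± 0.09, adjusted p = 0.503), and Mug-ps1, a pseudogene, 35.5 and 39.4 (0.05 ± 0.13, adjusted p = 0.924). Neither was told apart between groups. Mug2 shares 65.1% of its stretches with other genes, 49.4% with Mug-ps1, so its reads could be split, whereas Pzp shares none. A2ml1 (chr6:128539821-128581608), an alpha-2-macroglobulin like gene outside the list, fell from a median of 4.74 (3.52 to 8.09) to 2.71 (1.37 to 5.40), by -0.71 ± 0.10, adjusted p = 1.15e-05 in limma. The tag-high median lay below the lowest tag-low value, and 42 of 50 libraries were on their own side. In libraries 1 to 30 alone the difference of A2ml1 was -0.48 with an adjusted p of 0.309 in limma. In libraries 31 to 59 it was -0.996 with an adjusted p of 2.04e-05. The interaction of tag group and set for A2ml1 had an unadjusted p of 0.0109 and an adjusted p of 0.512 in limma.

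Bid and Tnfrsf1a were lower in tag-high libraries. Bid (chr6:120891930-120916853), a BH3-only protein that links death receptors to mitochondria, was the called gene farthest before Gapdh. Its values were 7.28, 9.09 and 12.9997 in tag-low and 4.10, 6.57 and 8.02 in tag-high libraries. The upper part of the tag-high range met the lower part of the tag-low range, and 45 of 50 libraries were on their own side (-0.50 ± 0.06, adjusted p = 3.71e-08 in limma). Tnfrsf1a (chr6:125349362-125362484), the type 1 receptor of tumour necrosis factor and the called gene nearest to Gapdh, had values of 54.5, 64.6 and 80.1 and of 43.1, 53.5 and 67.6. It was lower in tag-high libraries by -0.28 ± 0.05, adjusted p = 3.07e-04 in limma, with 39 of 50 libraries on their own side.

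Gm45769 and Smim10l1 overlap on the same strand about 7.9 Mb beyond Gapdh and moved in opposite directions. Smim10l1 (chr6:133104909-133110899), a small integral membrane protein gene, ran from 31.5 over 34.6 to 41.0 in tag-low and from 33.1 over 42.4 to 50.8 in tag-high libraries (0.24 ± 0.04, adjusted p = 1.57e-04). Gm45769 (chr6:133110474-133112301), a transcript of unknown status at its end, ran from 4.13 over 6.48 to 8.30 and from 2.73 over 4.06 to 6.77 (-0.60 ± 0.07, adjusted p = 4.37e-08 in limma). The exons overlap, so a read there cannot be given to one gene alone. Of 50 libraries, 41 were on their own side for Smim10l1 and 45 for Gm45769.

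Farther along lie the other called genes with differences above 1 on the log2 scale. Gprc5a (chr6:135065651-135084709), an orphan G protein-coupled receptor induced by retinoic acid, had low values, 0, 0.0908 and 0.900 in tag-low and 0.291, 1.47 and 9.50 in tag-high libraries. The tag-low libraries held 46 reads of it in all and tag-high libraries 7 to 132 each. The overlap came from few libraries, with 47 of 50 on their own side (1.68 ± 0.17, adjusted p = 8.04e-10 in limma). Over the alternatives the difference ran from 1.18 to 3.51. Gprc5a met the filter through the tag-high libraries, with group means of 0.162 and 1.86, and also passed with no filter. Its neighbour Fam234b (chr6:135197977-135244955) was lower in tag-high libraries, with medians of 45.4 and 33.8 and ranges of 32.2 to 62.9 and 21.98 to 48.0 that overlapped widely (-0.39 ± 0.08, adjusted p = 0.00491, 39 of 50 on their own side). Fam234b did not pass in libraries 1 to 30 alone (-0.45, adjusted p = 0.176 in limma) or 31 to 59 alone (-0.30, 0.588).

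Pik3c2g (chr6:139587221-139969284), a class II phosphoinositide 3-kinase found mainly in liver, ran from 3.05 over 5.09 to 19.3 in tag-low and from 5.49 over 12.7 to 19.9 in tag-high libraries. Tag-low libraries 24, 25 and 29 stood at 17.1, 14.2 and 19.3 and library 44 at 9.08, nearer to the tag-high median, and tag-high library 17 at 5.49, nearer to the tag-low median. The difference was 1.03 ± 0.15, adjusted p = 6.32e-06 in limma, and 45 of 50 libraries were on their own side. In libraries 1 to 30 alone, which hold libraries 17, 24, 25 and 29, it was 0.67 with an adjusted p of 0.33, and in libraries 31 to 59 it was 1.49 with an adjusted p of 3.10e-06. The interaction of tag group and set in limma had an unadjusted p of 0.00524 and an adjusted p of 0.512. Tm7sf3 (chr6:146602352-146642824), a membrane protein gene and the called gene farthest from Gapdh, had medians of 51.3 and 44.7 in ranges of 42.95 to 59.4 and 31.7 to 54.4 (-0.21 ± 0.04, adjusted p = 0.0145 in limma, 37 of 50 on their own side). Its call was lost without the 4 libraries nearest the tag value of 10 (adjusted p = 0.11). Tm7sf3 also did not pass in libraries 1 to 30 alone (-0.19, adjusted p = 0.407) or 31 to 59 alone (-0.23, 0.306).

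**Figure D4:**
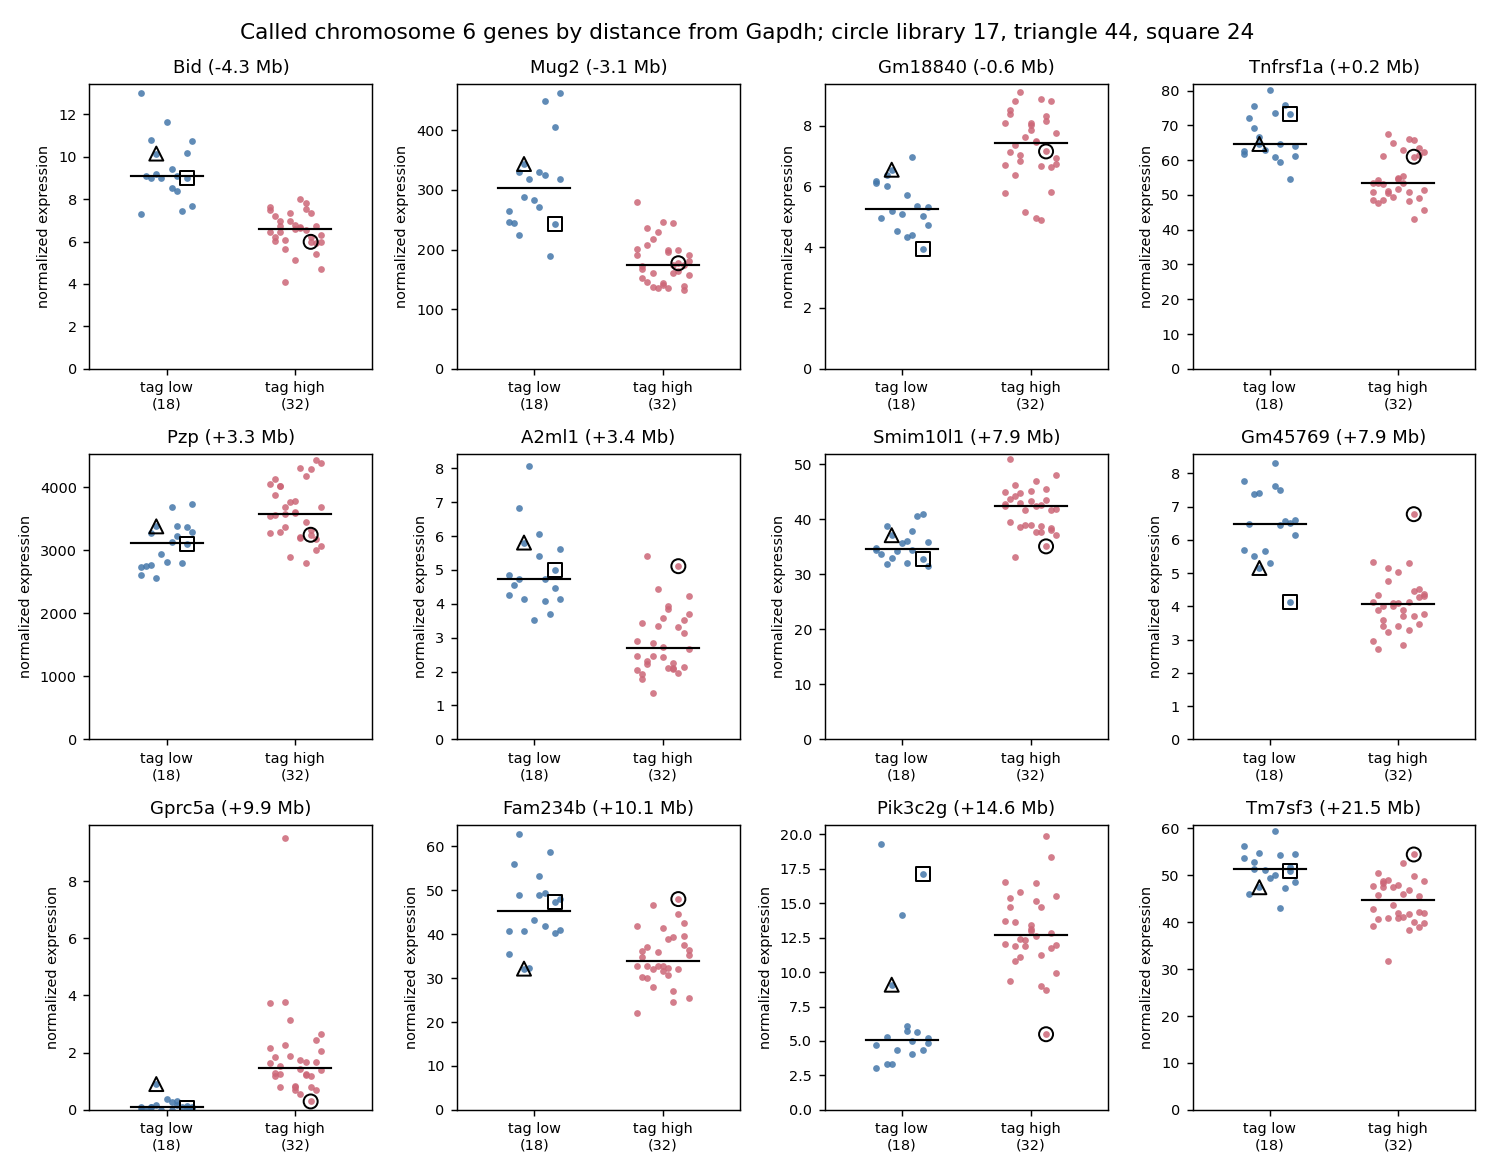
Normalized expression of the 12 called genes of chromosome 6 other than C1rb and C1s2, in order of distance from Gapdh. Points are libraries, black lines group medians, and the circle, triangle and square mark libraries 17, 44 and 24. For Pik3c2g tag-low libraries 24, 25, 29 and 44 lie among the tag-high libraries and library 17 among the tag-low ones.

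How single libraries sat along the chromosome was looked at after their values were seen, by asking of each called gene which libraries were nearer, on the log2 scale, to the median of the other group. For the 5 called genes before Gapdh this held for 8% of library and gene pairs, and for the 9 beyond it for 18%. C1rb and C1s2 had 0 such libraries, and over the other 3 genes before Gapdh, Bid, Mug2 and Gm18840, the share was 13.3%. In 10 of 50 libraries it held for no gene, and the median was 2 of 14 genes. Library 17, tag-high with a Gm13394 value of 115.5, was on its own side for all 5 genes before Gapdh and on the other side for all 9 beyond it. Library 44, tag-low, was on the other side for 6 genes, 5 of them beyond Gapdh, namely Pzp, Gprc5a, Fam234b, Pik3c2g and Tm7sf3. Without library 17, or without libraries 17 and 44, the same counts of 14 genes on chromosome 6 and 2 elsewhere passed. Whether chromosome 6 is recombinant in these mice was not tested.

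**Figure D5:**
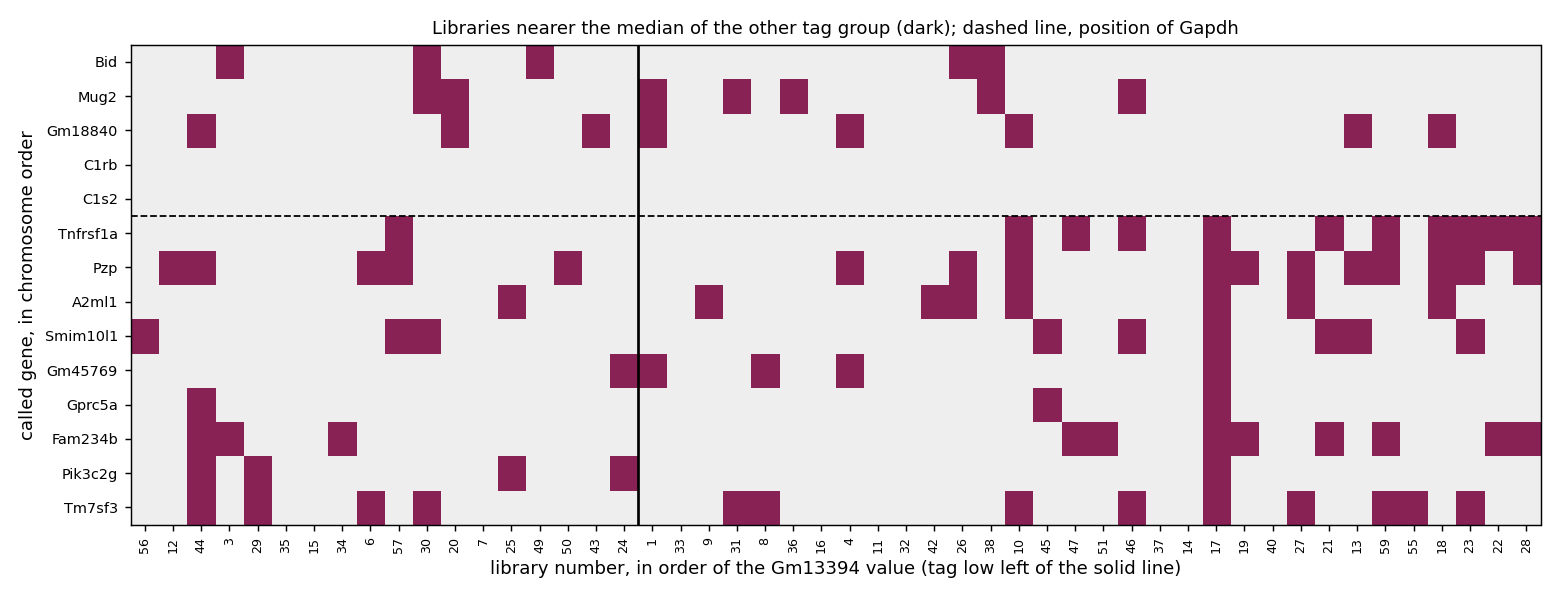
Libraries (columns, by increasing Gm13394 value, tag-low left of the solid line) and the 14 called genes of chromosome 6 (rows, in chromosome order). A dark cell is a library nearer to the median of the other tag group, and the dashed line is the place of Gapdh. Library 17 is dark for all 9 genes beyond Gapdh and for 0 of the 5 before it.

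For the windows of chromosome 6 before 120 Mb, the gene with the smallest p in each did not pass. Nearest to it was Tprkb (chr6:85911865-85930284), a subunit of the complex that modifies transfer RNA, with medians of 87.6 and 99.6 (0.19 ± 0.05, adjusted p = 0.218). Without the libraries that share an animal number Tprkb passed, with a difference of 0.22 and an adjusted p of 0.0362. Cxcl12, a chemokine gene 7.99 Mb before Gapdh, had medians of 202 and 228 (0.22 ± 0.07, adjusted p = 0.247), and Slc41a3, a magnesium transporter gene, 4.96 and 3.31 (-0.44 ± 0.14, adjusted p = 0.335). All overlapped widely between groups. The leading genes of the other windows, Casd1, 2610001J05Rik, Hilpda, Akr1b7, Repin1, Cbx3, Mad2l1, Usp39 and Itpr1, had adjusted p between 0.435 and 0.551 in limma.

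Off chromosome 6, the 2 called genes were Ces3a on chromosome 8 and Nt5c2 on chromosome 19. Ces3a, a liver carboxylesterase, ran from 599 over 1049 to 1426 in tag-low and from 928 over 1414 to 1749 in tag-high libraries, with library 24 the lowest. The ranges shared their middle part, and 37 of 50 libraries were on their own side (0.40 ± 0.08, adjusted p = 0.00731 in limma, 0.0208 without library 24). With library 24 counted as tag-high, at a tag value of 5, Ces3a did not pass (0.32, adjusted p = 0.329). Ces3a shares 34.9% of its stretches with Ces3b. Nt5c2, a cytosolic nucleotidase, had medians of 13.8 and 12.1 in overlapping ranges of 11.4 to 18.4 and 8.95 to 15.1 (-0.22 ± 0.05, adjusted p = 0.0463, 37 of 50 on their own side), and its call was lost when the model held the library number set (adjusted p = 0.0511), counted reads (0.0552) or 5 principal components (0.0771), and without the 4 libraries nearest the tag value of 10 (0.0908). In neither set alone did either gene pass.

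Metabolic genes of the region mostly gave no call. Of 6 organic anion transporters of chromosome 6, which take bile acids and drugs into hepatocytes, 3 were tested, 0 passed in limma and 3 had an unadjusted p under 0.05, against 9.05% of all genes tested. Slco1a1 had medians of 95.4 and 145 (0.57 ± 0.20, adjusted p = 0.375), Slco1b2 551 and 641, and Slco1a4 117 and 109, each with wide overlap. Of 14 listed liver metabolism genes of distal chromosome 6, 12 were tested, 1 passed (Pik3c2g) and 5 had an unadjusted p under 0.05, where the shares over all genes tested were 0.14% and 9.05%; Mgst1, a microsomal glutathione transferase and the most abundant, had medians of 1938 and 1986. The median differences of these lists were 0.19 and 0.00. On chromosome 6 from 120 Mb, 8.64% of genes tested passed and 31.5% had an unadjusted p under 0.05 in limma. Of the metabolism list, Pparg and Adipor2 start before 120 Mb.

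The list of glycolytic enzymes gave no call. Of 22 listed, Gapdh among them and described above, 19 were tested, 0 passed in limma and 2 had an unadjusted p under 0.05, against 9.05% of all genes tested, with differences between -0.29 and 0.09 and a median of -0.03. Tpi1, triosephosphate isomerase, lies 0.352 Mb before Gapdh and had medians of 383 and 342 (-0.13 ± 0.06, adjusted p = 0.541). Its values overlapped between groups over most of their range.

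The natural killer gene complex, a cluster of lectin-like receptor genes, also lies on distal chromosome 6. Of 30 listed genes, 19 were not in the table and 10 were tested, of which 0 passed in limma and 3 had an unadjusted p under 0.05, against 9.05% of all genes tested. Clec4a1, a lectin of myeloid cells, had medians of 2.81 and 2.26 (-0.28 ± 0.09, adjusted p = 0.335), and Clec2d, a ligand of a natural killer receptor and the most abundant member, 63.8 and 49.4 (-0.25 ± 0.12, adjusted p = 0.53). The list's median difference was -0.16 and its ranges overlapped. On chromosome 6 from 120 Mb, 31.5% of genes tested had an unadjusted p under 0.05 in limma.

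Cell type markers did not divide by tag. All 7 hepatocyte markers were measured, 0 passed in limma, and their summed value had a median of 106866 in tag-low and 102294 in tag-high libraries, with Alb the most abundant. The 10 Kupffer cell and macrophage markers summed to medians of 451 and 441, the 5 of sinusoidal endothelium to 167 and 167, the 6 of stellate cells and fibroblasts to 122 and 117, and the 5 of erythroid cells to 173.5 and 172. The 3 measured cholangiocyte markers summed to 5.74 and 4.92, the 4 measured B cell markers to 7.54 and 7.46, and the neutrophil and the natural killer and T cell lists each had 1 measured member, S100a9 and Cd4, with medians of 1.15 and 0.930 and of 1.126 and 1.27. No marker of these lists passed, 2 hepatocyte, 2 Kupffer cell, 1 endothelial and 1 erythroid marker had an unadjusted p under 0.05 (9.05% over all genes tested), and none of those measured was at 0 in all libraries. In bulk tissue, fewer cells of a type and less RNA per cell cannot be told apart.

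Depth and library order were alike in both groups. Counted reads ran from 11965594 to 29976557 in tag-low and from 12613243 to 27145400 in tag-high libraries. Libraries 1 to 30 held 10 tag-low and 18 tag-high libraries, and libraries 31 to 59 held 8 and 14. The summed values per library had medians of 984501 and 1014190, and with every library rescaled to the same sum 15 genes passed on chromosome 6, 13 of them among the 14, and 2 elsewhere. In libraries 1 to 30 alone 8 genes of chromosome 6 passed and in libraries 31 to 59 alone 10, of which 8 and 9 were among the 14. C1rb, C1s2, Gprc5a, Bid, Mug2 and Gm45769 passed in both sets, Smim10l1 and Tnfrsf1a only in the lower numbers, Pik3c2g, Gm18840 and A2ml1 only in the higher numbers, and Pzp, Fam234b and Tm7sf3 in neither. Each of the 14 had the same direction in both sets. Both sets are parts of the 50 libraries on which the 14 were called, so their results are not independent of that call. A difference of the tag effect between sets passed the adjusted p in limma for 0 of 11427 genes (0%), and 989 genes (8.65%) had an unadjusted interaction p under 0.05.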

How the data were processed

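RNA was measured in 50 libraries of mouse liver, which carry 48 distinct animal numbers, by stranded poly(A) sequencing. Per the labels, the authors aligned reads with HISAT2, counted them with HTSeq 0.11.1 and normalized them with edgeR, and the deposited signal is a normalized value per gene. The columns are not plain counts scaled to a fixed sum, since their sums ran from 886171 to 1120650. Dividing each column by its value of 1 read gave whole reads for 100% of values within 0.01 read. All 50 columns were mapped to a sample. The 12185 genes were placed with GENCODE M21 (GRCm38), which lacks 8 of them. Libraries were grouped by Gm13394 at 10, and genes with a mean of 1 or more were compared on log2(value + 0.5) with limma 3.58.1 (R 4.3.3) and Benjamini-Hochberg adjustment at 0.05. Genes sharing a 31-base stretch with Gapdh were described without a test. Named are genes that passed, those with the smallest p in each chromosome 6 window, and members of lists, which were chosen with earlier results of these data known. edgeR 4.0.16 and DESeq2 1.42.0 were run on whole reads. The code was tested on simulated data. Read totals printed for single genes are descriptions without a test. The p-values of limma, edgeR and DESeq2 measure spread between libraries.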

Additional observations from a re-analysis of the deposited data

How the results depend on the processing

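Under 22 alternatives the genes called on chromosome 6 numbered between 8 and 20, against 14, and those elsewhere between 1 and 6, against 2. C1rb passed in each, with log2 differences from 3.08 to 5.50, and C1s2 ran from 2.93 to 7.62. Elsewhere, 1 gene passed with the set of library numbers in the model, 4 with animal number, 1 with counted reads and 4 with 5 principal components. In libraries 1 to 30 alone 8 genes of chromosome 6 and 1 elsewhere passed. Without libraries sharing an animal number 4 passed elsewhere, without the 4 libraries nearest the tag value of 10 it was 1, and with a tag value of 5 it was 1. DESeq2 on whole reads called 6 elsewhere. On whole reads, 100% of values within tolerance, edgeR called 17 on chromosome 6 and 3 elsewhere, 20 in all. C1rb, Bid and Mug2 passed in every alternative, and C1s2, Gprc5a and Gm45769 in all 21 that tested them, since a filter at a mean of 5 leaves them out. Leaving out library 24 gave 13 and 2, library 17 gave 14 and 2, and libraries 17 and 44 gave 14 and 2; these were chosen after the data were seen. No paired analysis was possible because the tag groups share no replicate number. The cause of these differences was not tested.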
